A study of Mus musculus with 7 samples.

Results

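The Fanconi anaemia and crosslink repair genes were followed in cultured mouse haematopoietic stem cells, the blood-forming cells of the bone marrow, after exposure to a drug that disturbs DNA replication. The 32 members were chosen by gene symbol from the known composition of the pathway, and all 32 were present among the 52224 genes of the deposited table. Wild-type mice of the strain C57BL/6J gave bone marrow, from which lineage-negative Sca-1+ c-Kit+ CD150+ CD48- cells were sorted and then held in culture for 48 h with gemcitabine at 0.5 µM (Gem, n = 2 libraries), hydroxyurea at 100 µM (HU, n = 2) or the solvent DMSO (n = 3). All groups share the genotype, the sort and the culture. Gemcitabine is a cytidine analogue that is incorporated into DNA, and hydroxyurea inhibits ribonucleotide reductase; neither forms crosslinks. Whether the libraries within a group trace back to different animals or dishes is not in the labels; a p-value here reflects library-to-library spread, part or all of which could be technical.

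Fanconi anaemia is an inherited bone marrow failure caused by loss of this pathway, which removes bonds that tie the strands of DNA together. A core complex of FANC and FAAP proteins acts as a ubiquitin ligase and, with the conjugating enzyme UBE2T, marks the pair FANCD2 and FANCI; the deubiquitinase USP1 with its partner WDR48 takes the mark off again. Marked FANCD2 and FANCI direct nucleases held by SLX4 to cut out the bond, after which translesion polymerases copy past the damage and the BRCA proteins restore the chromosome by recombination. The same proteins protect stalled replication forks, and blood stem cells depend on them.

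Levels are FPKM (fragments mapped to a gene, divided by transcript length and by the library's mapped fragments) as the authors deposited them, and the sequencing depth could not be read from them. A change is given as a log2 fold change of FPKM + 1, a scale on which low genes appear to change less than they did. A gene is called higher or lower at a Benjamini-Hochberg adjusted p below 0.05 in limma over all 13865 genes tested, those reaching 1 FPKM in 2 or more libraries. All 32 members passed that filter. Most genes tested lay lower in the drug libraries, 79.5% of them in Gem and 78.8% in HU. More genes of the table had a value above 0 there, 27887 to 29158 in Gem and 29687 to 31153 in HU, against 21251 to 23047 in DMSO. Over all genes tested the median log2 fold change was -0.25 for Gem and -0.30 for HU. Trimmed-mean scaling of the libraries, called scaled here, brought these medians to 0.0093 and 0.013. Each change is therefore given on both scales.

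All members were detected in the DMSO cultures, over a wide range of levels. Faap20, a small core complex subunit, was the most abundant at 42.6 ± 2.33 FPKM (SD, n = 3), above the level of 81.5% of the genes tested. Next came Rfwd3, a ubiquitin ligase that acts on replication protein A, at 32.2 ± 0.469 FPKM, and Ercc1, a subunit of the nuclease that unhooks the crosslink, at 27.3 ± 3.42. The lowest were Fan1, a nuclease that can act beside the pathway, at 1.45 ± 0.251 FPKM, and Fancf, a core complex adaptor, at 1.90 ± 0.164. The genes that handle the ubiquitin mark stood above the pair that carries it. Usp1, Wdr48 and Ube2t averaged 26.4 ± 4.72, 21.5 ± 2.49 and 18.8 ± 1.03 FPKM in DMSO, whereas Fancd2 and Fanci averaged 5.27 ± 0.572 and 4.95 ± 0.427. Fancl, the catalytic subunit of the core complex, was at 7.91 ± 2.1 FPKM. FPKM is divided by length, but the annotation behind it is not known and exons of 16 members overlap a gene on the opposite strand, Wdr48 among them, so the order of these levels is approximate.

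**Figure D1:**
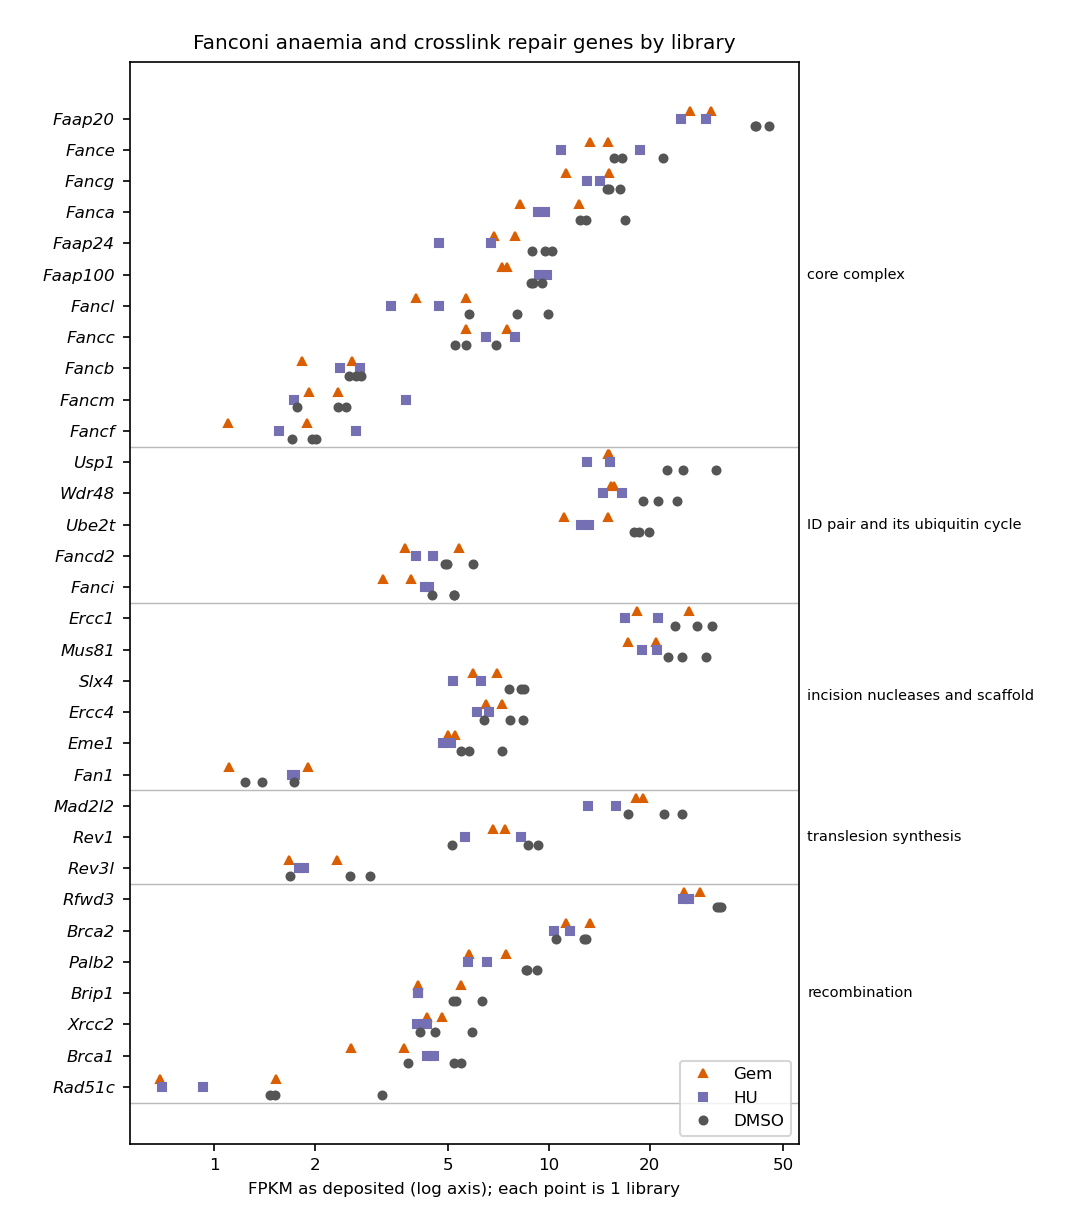
FPKM (log axis) of the 32 members in each library, grouped by role and ordered by DMSO level; triangles are Gem, squares HU and circles DMSO. Usp1, Wdr48, Ube2t and Faap20 have every drug library below every DMSO library, whereas Brca2 and Fancc have overlapping groups.

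Few members were called in gemcitabine. Set against DMSO, Gem had 4 of 32 members that fell as deposited and 0 that rose, beside 23.2% of all genes tested that fell and 1.5% that rose. The 4 were Usp1, Ube2t and Wdr48, which control the FANCD2 mark, and Faap20. The median member changed by -0.27 and the median of all genes by -0.25. After scaling 0 members were called in limma (0.469% of all genes fell and 0.483% rose), with 3 members at an unadjusted p below 0.05 and a median of -0.0076. The share of members that fell was thus no larger than that of the table as a whole.

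More members were called in hydroxyurea. In HU against DMSO, 10 of 32 members fell as deposited and 0 rose, beside 35.5% of all genes that fell and 4.46% that rose. The 10 were the 4 called in Gem together with Fancl, Faap24, Slx4, Mad2l2, Palb2 and Rfwd3. The median member changed by -0.28 and the median of all genes by -0.30. After scaling 0 members fell and 1 rose, Faap100, beside 5.42% of all genes that fell and 4.67% that rose; 5 members had an unadjusted p below 0.05, and the median was 0.036. The 10 calls as deposited make a share close to that of the table. Gem and HU are set against the same DMSO libraries, so their calls are not independent of each other.

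**Figure D2:**
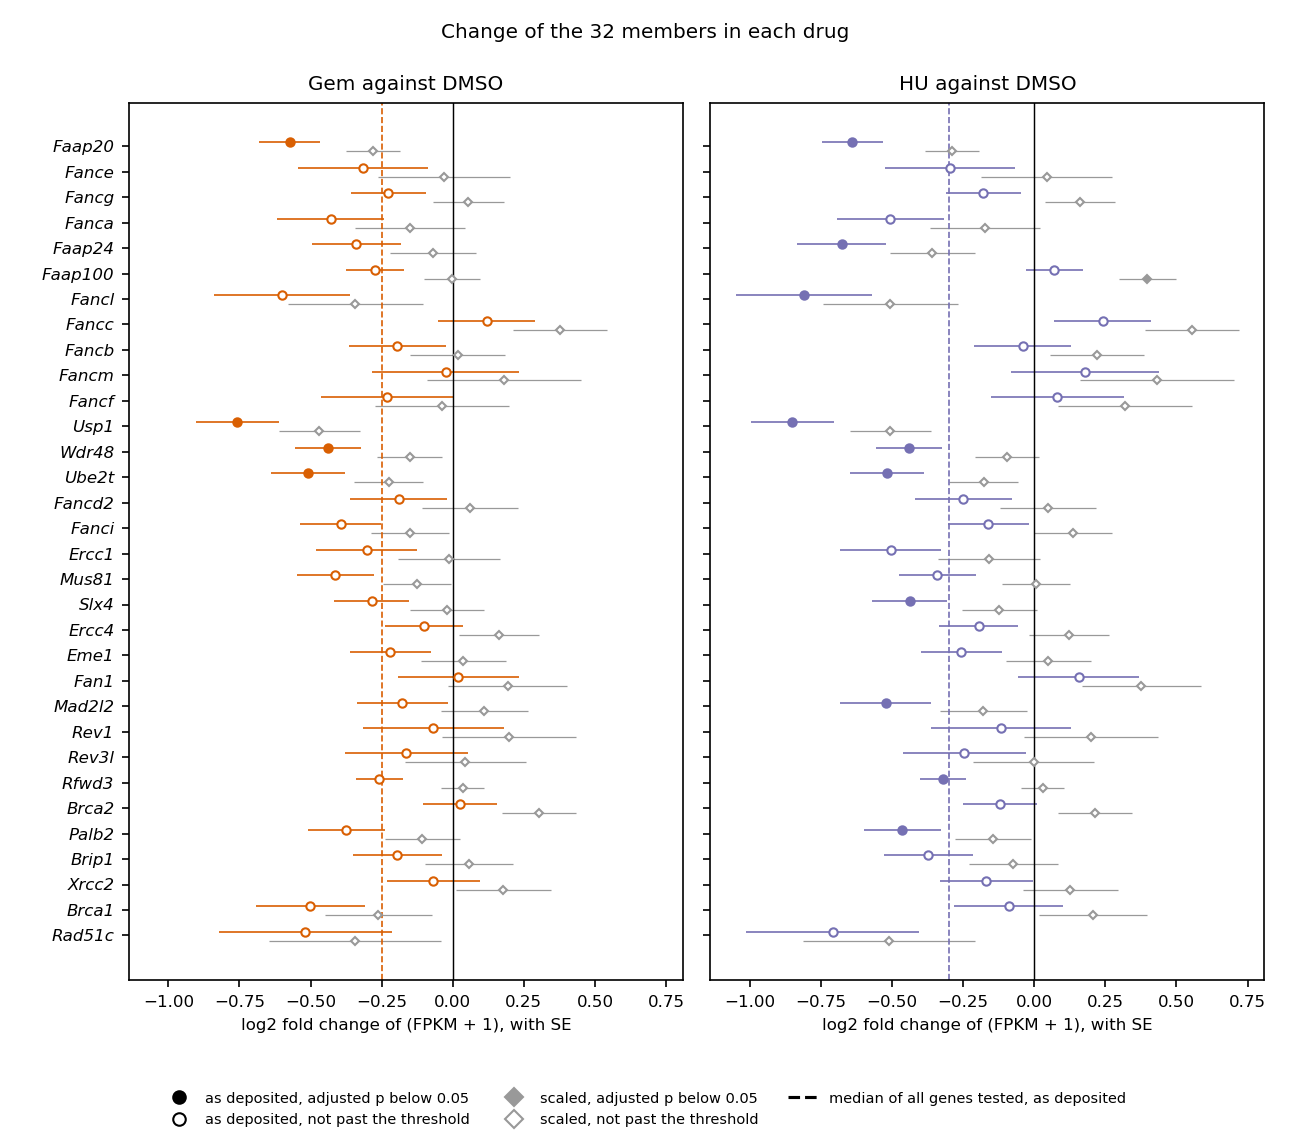
log2 fold change of FPKM + 1 with its SE (limma) for each member in Gem (left) and HU (right). Circles are values as deposited and diamonds scaled values, filled where the adjusted p is below 0.05; the dashed line is the median of all genes tested as deposited (-0.25 in Gem, -0.30 in HU), around which the open circles lie.

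Libraries of a group can be compared directly, without a model. As deposited, all Gem libraries lay below all DMSO libraries for 16 members and above them for 0, beside 50.4% and 5.94% of all genes tested. All HU libraries lay below DMSO for 19 members and above for 0, beside 53.9% and 8.24%. For 13 members all 4 drug libraries lay below all 3 DMSO libraries, and for 0 above, beside 42.6% and 3.76%. After scaling, Gem lay below DMSO for 2 members and above for 2, beside 17.5% and 18% of all genes. HU lay below for 5 and above for 8 on that scale, beside 20.2% and 21.3%. All 4 scaled drug libraries lay below DMSO for Faap20 and Usp1 (2 members, beside 11.4% of all genes) and above it for Fancc and Brca2 (2 members, beside 10.6%). The members' shares lay near or below those of the table.

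The 4 members that fell in both drugs as deposited are plus-strand genes in the annotation of GRCm38, the assembly of mm10. Usp1 spans 98923810 to 98935543 of chromosome 4 and Faap20 spans 155249802 to 155256687 of the same chromosome. Ube2t spans 134962565 to 134974162 of chromosome 1, and Wdr48 spans 119894878 to 119926587 of chromosome 9. FPKM covers the whole gene, so exons and untranslated regions are not told apart. Exons of 16 members overlap those of a gene on the opposite strand, among them Fanca, Fancl, Faap24, Mus81, Palb2 and Wdr48 but not Usp1, Ube2t, Faap20, Faap100, Slx4, Mad2l2 or Rfwd3. The promoters of 3 members that fell in both drugs as deposited, the 250 bases before the start site in RefSeq (GRCm38.p6), are shown because these genes were lower together. RefSeq starts Faap20 and Wdr48 further downstream than that annotation. They are chr4:155249716-155249965 for Faap20, chr1:134962315-134962564 for Ube2t and chr9:119894645-119894894 for Wdr48, all on the plus strand and written 5′ to 3′, with CCAAT boxes on this strand in capitals.
Faap20: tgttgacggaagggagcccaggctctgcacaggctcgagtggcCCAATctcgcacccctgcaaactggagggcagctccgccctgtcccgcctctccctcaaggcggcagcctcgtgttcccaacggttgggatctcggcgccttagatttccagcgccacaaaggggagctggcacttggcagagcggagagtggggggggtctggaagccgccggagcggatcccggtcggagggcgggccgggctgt
Ube2t: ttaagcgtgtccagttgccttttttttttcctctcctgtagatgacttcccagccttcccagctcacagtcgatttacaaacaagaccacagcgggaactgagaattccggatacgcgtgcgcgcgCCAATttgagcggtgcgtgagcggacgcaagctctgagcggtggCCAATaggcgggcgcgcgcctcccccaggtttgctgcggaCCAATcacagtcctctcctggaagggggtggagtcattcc
Wdr48: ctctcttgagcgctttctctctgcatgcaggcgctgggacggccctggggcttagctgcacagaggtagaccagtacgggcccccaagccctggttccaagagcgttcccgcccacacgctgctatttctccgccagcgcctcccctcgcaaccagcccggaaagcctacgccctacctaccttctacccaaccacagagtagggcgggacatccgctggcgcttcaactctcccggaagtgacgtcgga

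On either strand Ube2t holds the box CCAAT 3 times, the first base 40, 80 and 124 bases before the start, Faap20 holds it once at 207 bases, and Wdr48 does not hold it. The set of RefSeq promoters used here had no entry for Usp1, Fancd2, Rev3l and Xrcc2, so these were not searched. Of the other 28 members 15 hold CCAAT. Counted by promoter, since Mad2l2 and Rad51c have more than 1, that is 15 of 30, beside 33.8% of all 32851 promoters of that length. For Slx4, Fancc and Mad2l2 the stretch with the box lies wholly inside the gene as GENCODE spans it, downstream of its outermost start. An E2F motif, searched as TTTCCCGC, TTTGGCGC, TTTCGCGC, TTTGCCGC, TTTGGCGG or TTTCCCGG, is in 2 (Brca2 and Fancg), beside 3.22% of all promoters, and the cell cycle homology element TTTGAA is in 2 (Faap24 and Rfwd3), beside 16.0%; the NRF1 site is in 0, beside 0.782%. Neither Brca2 nor Fancg was called in either drug. Faap24 and Rfwd3 fell in HU as deposited, and were called neither after scaling nor in Gem. A match describes letters and is neither a binding site nor a cause.

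Usp1, the protease that removes ubiquitin from FANCD2, was lower in both drugs as deposited. Its FPKM was 15.12 and 14.98 in Gem, 15.20 and 12.98 in HU, and 31.61, 25.11 and 22.44 in DMSO. The drug and DMSO libraries did not overlap, and DMSO 1 was the highest. In Gem the mean was 57.0% of the DMSO mean, a log2 fold change of -0.76 ± 0.15 (SE; limma Benjamini-Hochberg adjusted p = 0.0133). In HU it was 53.4%, a log2 fold change of -0.85 ± 0.15 (limma adjusted p = 0.00472). After scaling the changes were -0.47 (95% interval -0.80 to -0.13) and -0.51 (-0.84 to -0.17), with limma adjusted p = 0.166 and 0.0692, and without DMSO 3 the scaled HU change passed (limma adjusted p = 0.0490). In Gem the call as deposited was lost without Gem 1 and without Gem 2 (limma adjusted p up to 0.0923), and in HU it held without each library in turn.

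Wdr48 encodes the WD-repeat protein that activates USP1. Its FPKM was 15.63 and 15.37 in Gem, 14.51 and 16.53 in HU, and 19.09, 24.06 and 21.20 in DMSO. Every drug library lay below every DMSO library. The log2 fold changes were -0.44 ± 0.12 in both Gem (SE; limma adjusted p = 0.0333) and HU (limma adjusted p = 0.0216). After scaling they were -0.15 and -0.096, neither past the threshold, and the scaled groups overlapped. As deposited, the Gem call was lost without DMSO 2, DMSO 3, Gem 1 or Gem 2 and the HU call without DMSO 2 or HU 1. Exons of Wdr48 overlap those of Gorasp1 on the opposite strand over 1331 bases, and the protocols do not say that reads carry strand, so the values of these genes cannot be told apart there.

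Ube2t, whose promoter holds the 3 boxes above, encodes the conjugating enzyme that works with the core complex to put the mark on. Its FPKM was 14.96 and 11.11 in Gem, 13.13 and 12.49 in HU, and 19.92, 17.91 and 18.55 in DMSO. Again no drug library reached a DMSO library. The log2 fold change was -0.51 ± 0.13 in Gem (SE; limma adjusted p = 0.0299) and -0.52 ± 0.13 in HU (limma adjusted p = 0.0178), and -0.22 and -0.18 after scaling, where neither passed. As deposited the Gem call was lost without DMSO 1, DMSO 2 or Gem 2 and the HU call without DMSO 1, HU 1 or HU 2. The enzyme's substrates did not pass in either drug. Fancd2 was at 5.37 and 3.72 FPKM in Gem, 4.52 and 4.01 in HU, and 4.97, 4.91 and 5.93 in DMSO. Fanci was at 3.88 and 3.19 FPKM in Gem, 4.26 and 4.37 in HU, and 4.46, 5.2 and 5.2 in DMSO. Gem 1 overlapped the DMSO libraries for Fancd2, while for Fanci all drug libraries lay below DMSO. The log2 fold changes were -0.19 (Gem) and -0.25 (HU) for Fancd2 and -0.39 and -0.16 for Fanci, and after scaling they ran from -0.15 to 0.14.

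**Figure D3:**
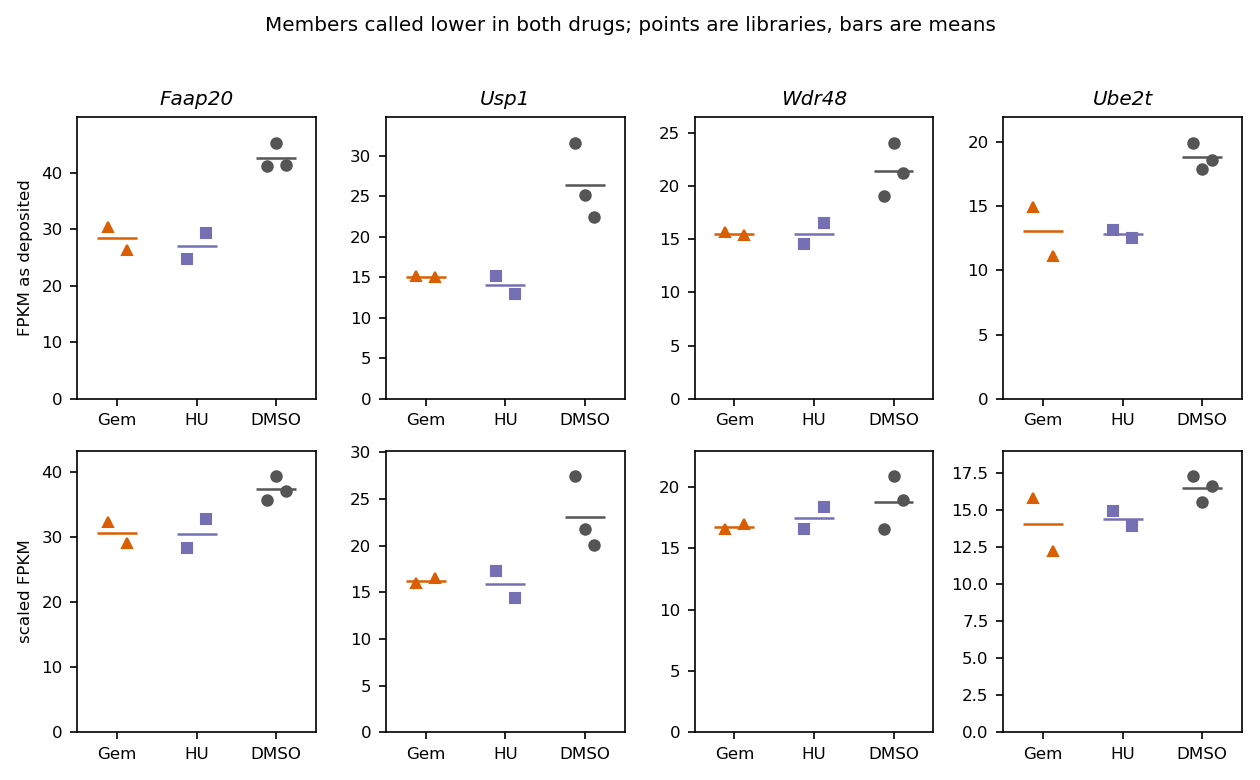
FPKM as deposited (top) and scaled FPKM (bottom) of the 4 members called lower in both drugs as deposited. Points are libraries and bars are means; Usp1 and Faap20 keep apart from DMSO after scaling, whereas scaled libraries overlap DMSO for Wdr48 in both drugs and for Ube2t in Gem.

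The core complex had 1 of its 11 members lower in Gem and 3 in HU as deposited, beside 23.2% and 35.5% of all genes. Faap20, whose protein ties FANCA into the complex and binds ubiquitin, was at 30.47 and 26.28 FPKM in Gem, 24.76 and 29.37 in HU, and 41.15, 45.31 and 41.41 in DMSO. The groups stood well apart, with a mean of 66.6% of the DMSO mean in Gem and 63.5% in HU. The log2 fold change was -0.57 ± 0.11 in Gem (SE; limma adjusted p = 0.0122) and -0.64 ± 0.11 in HU (limma adjusted p = 0.00416), and -0.28 and -0.29 after scaling (limma adjusted p = 0.203 and 0.105). In HU the call as deposited held without each library in turn, and in Gem it was lost without Gem 2, of the 7 libraries left out in turn, (limma adjusted p = 0.0954). Faap24, whose protein binds DNA together with FANCM, was at 7.94 and 6.85 FPKM in Gem, 4.70 and 6.71 in HU, and 10.24, 8.89 and 9.70 in DMSO. It fell in HU (log2 fold change -0.68 ± 0.16, SE; limma adjusted p = 0.0132) and was at -0.34 in Gem, where it did not pass. The HU call was lost without HU 1 (limma adjusted p = 0.0769), which held the lowest value, and after scaling the HU change was -0.36 (limma adjusted p = 0.190).

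Fancl, the ligase subunit itself, was at 5.64 and 4 FPKM in Gem, 3.37 and 4.68 in HU, and 8, 5.76 and 9.96 in DMSO. It fell in HU (log2 fold change -0.81 ± 0.24, SE; limma adjusted p = 0.0318) and was at -0.60 ± 0.24 in Gem (limma adjusted p = 0.106). The HU call was lost without DMSO 1, DMSO 3, HU 1 or HU 2, and DMSO 2 lay close to Gem 1. After scaling the HU change was -0.51 (limma adjusted p = 0.240). Faap100, a scaffold subunit bound to FANCL and FANCB, differed from these. It was at 7.49 and 7.23 FPKM in Gem, 9.87 and 9.35 in HU, and 9.52, 8.93 and 8.85 in DMSO, so that HU overlapped DMSO and Gem lay below it. As deposited it was not called in HU (log2 fold change 0.071). After scaling it was at 11.3 and 10.4 in HU and 8.26, 7.75 and 7.92 in DMSO, a rise of 0.40 ± 0.099 (SE; limma adjusted p = 0.0470). That rise was lost without any single library, with limma adjusted p from 0.0750 without Gem 1 to 0.196 without HU 1.

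The other 7 core complex members were not called on either scale. Fancc, a cytoplasmic and nuclear adaptor subunit, was at 7.48 and 5.65 FPKM in Gem, 7.94 and 6.47 in HU, and 6.96, 5.25 and 5.65 in DMSO. Its drug libraries lay above DMSO only after scaling, with scaled log2 fold changes of 0.38 (limma adjusted p = 0.309) and 0.55 (limma adjusted p = 0.0817). Fanca, the gene most often mutated in patients, averaged 10.3 ± 2.87 FPKM in Gem and 9.50 ± 0.332 in HU (SD, n = 2 each), and 14.03 ± 2.44 in DMSO (n = 3). Its log2 fold changes were -0.43 ± 0.19 in Gem (SE; limma adjusted p = 0.132) and -0.51 ± 0.19 in HU (limma adjusted p = 0.0664). Fance and Fancg had changes between -0.32 and -0.18, and the low-level genes Fancb, Fancf and Fancm, at or below 2.64 FPKM on average in DMSO, between -0.23 and 0.18. Of these, Fancm, the DNA translocase that brings the complex to the lesion, was at 3.75 FPKM in HU 1 and 1.73 in HU 2, on either side of its Gem and DMSO values.

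Of the 6 genes of incision, 0 passed in Gem and 1 fell in HU as deposited (23.2% and 35.5% of all genes fell). Slx4, the scaffold that holds the nucleases, was at 5.93 and 6.99 FPKM in Gem, 5.18 and 6.25 in HU, and 8.23, 8.41 and 7.58 in DMSO. No drug library reached DMSO. It fell in HU (log2 fold change -0.44 ± 0.13, SE; limma adjusted p = 0.0337, and -0.12 after scaling) and was at -0.28 in Gem (limma adjusted p = 0.151). The HU call was lost without DMSO 1, DMSO 2 or HU 1. Mus81, a nuclease that cuts stalled forks, was at 20.86 and 17.20 FPKM in Gem, 18.97 and 21.03 in HU, and 29.52, 24.99 and 22.66 in DMSO. It lay below DMSO in every drug library, with log2 fold changes of -0.41 in Gem (limma adjusted p = 0.0612) and -0.34 in HU (limma adjusted p = 0.0816); without DMSO 3 it passed in both. Eme1, its partner, had -0.22 and -0.26, Ercc4, the catalytic partner of Ercc1, had -0.10 and -0.20, and Fan1 had 0.019 and 0.16. Ercc1 was at 18.26 and 26.12 FPKM in Gem, 16.83 and 21.12 in HU, and 27.63, 30.57 and 23.76 in DMSO. Only Gem 2 reached the DMSO range, and the HU change of -0.50 missed the threshold (limma adjusted p = 0.0565).

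Of the 3 genes of translesion synthesis, 0 passed in Gem and 1 fell in HU as deposited, against the same 23.2% and 35.5% of all genes. Mad2l2, which encodes the REV7 subunit of polymerase zeta and of shieldin, was at 19.05 and 18.13 FPKM in Gem, 15.87 and 13.10 in HU, and 24.98, 22.01 and 17.16 in DMSO. DMSO 3 lay below both Gem libraries. The HU log2 fold change was -0.52 ± 0.16 (SE; limma adjusted p = 0.0359, and -0.18 after scaling), a call that held when DMSO 3 was left out and was lost without any of the other 6 libraries. Rev1, a scaffold polymerase, was at 6.82 and 7.37 FPKM in Gem, 5.61 and 8.25 in HU, and 8.66, 9.28 and 5.14 in DMSO, and Rev3l, the catalytic subunit of polymerase zeta, averaged 2.01 ± 0.460, 1.82 ± 0.0424 and 2.39 ± 0.631 FPKM in Gem, HU and DMSO (SD, n = 2, 2 and 3). DMSO 3 was the lowest DMSO library for all 3 of these genes.

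Of the 7 genes of recombination, 0 passed in Gem and 2 fell in HU as deposited, again beside 23.2% and 35.5% of all genes. Palb2, which bridges BRCA1 and BRCA2, was at 7.44 and 5.77 FPKM in Gem, 6.51 and 5.72 in HU, and 8.6, 8.56 and 9.24 in DMSO. Its groups did not overlap in either drug. It fell in HU (log2 fold change -0.46 ± 0.14, SE; limma adjusted p = 0.0302, and -0.14 after scaling) and was at -0.37 in Gem (limma adjusted p = 0.0808), and the HU call was lost without any DMSO or HU library. Rfwd3 was at 28.32 and 25.31 FPKM in Gem, 26.14 and 25.05 in HU, and 32.64, 31.71 and 32.28 in DMSO. Its close replicates gave a call in HU for a small change as deposited (-0.32 ± 0.081, SE; limma adjusted p = 0.0181) that turned to 0.029 after scaling (limma adjusted p = 0.856); it was lost without DMSO 1, HU 1 or HU 2.

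Brca1 and Brca2, the recombination mediators best known from breast and ovarian cancer, were not called in either drug. Brca1 was at 3.69 and 2.56 FPKM in Gem, 4.54 and 4.33 in HU, and 5.22, 3.79 and 5.48 in DMSO. Gem lay below DMSO and HU within its range. The log2 fold changes were -0.50 ± 0.19 in Gem (SE; limma adjusted p = 0.0954) and -0.089 in HU. Brca2 was at 13.24 and 11.25 FPKM in Gem, 11.59 and 10.33 in HU, and 12.88, 10.50 and 12.70 in DMSO, with log2 fold changes of 0.025 (Gem) and -0.12 (HU) on the deposited values. On the scaled values these were 0.30 and 0.21, neither past the threshold. Brip1, a helicase bound to BRCA1, had -0.19 and -0.37, and Xrcc2, a recombination factor, had -0.069 and -0.17. Rad51c, another recombination factor, was at 1.53 and 0.69 FPKM in Gem, 0.70 and 0.93 in HU, and 1.47, 1.52 and 3.17 in DMSO, and was the only member under 1 FPKM in any library. Its changes of -0.52 ± 0.30 and -0.71 ± 0.30 (SE) did not pass in limma (adjusted p = 0.244 and 0.102).

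Summed by role, the ubiquitin cycle kept all drug libraries below DMSO after scaling. The FPKM of its 5 genes, scaled, summed to 58.2 and 53.4 in Gem, 58.9 and 56.1 in HU, and 69.5, 67.0 and 65.6 in DMSO, without overlap. Usp1, Wdr48 and Ube2t make most of that sum. Of the 5 genes only Usp1 by itself had all drug libraries below DMSO after scaling. The sum therefore does not show a fall across the role. The scaled sums of incision, translesion and recombination genes overlapped between drug and DMSO libraries, as did that of the core complex in HU, while in Gem the core complex summed to 109.0 and 102.5 against 115.8, 111.1 and 113.5 in DMSO. Over all 32 members the scaled sum was 327 and 316 in Gem, 329 and 318 in HU, and 347, 331 and 332 in DMSO. As deposited it was 309.2 and 286.2 in Gem, 288.6 and 285.5 in HU, and 400.4, 382.0 and 370.5 in DMSO. These sums weigh abundant genes most, are not tested, and were made with the members' values known.

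**Figure D4:**
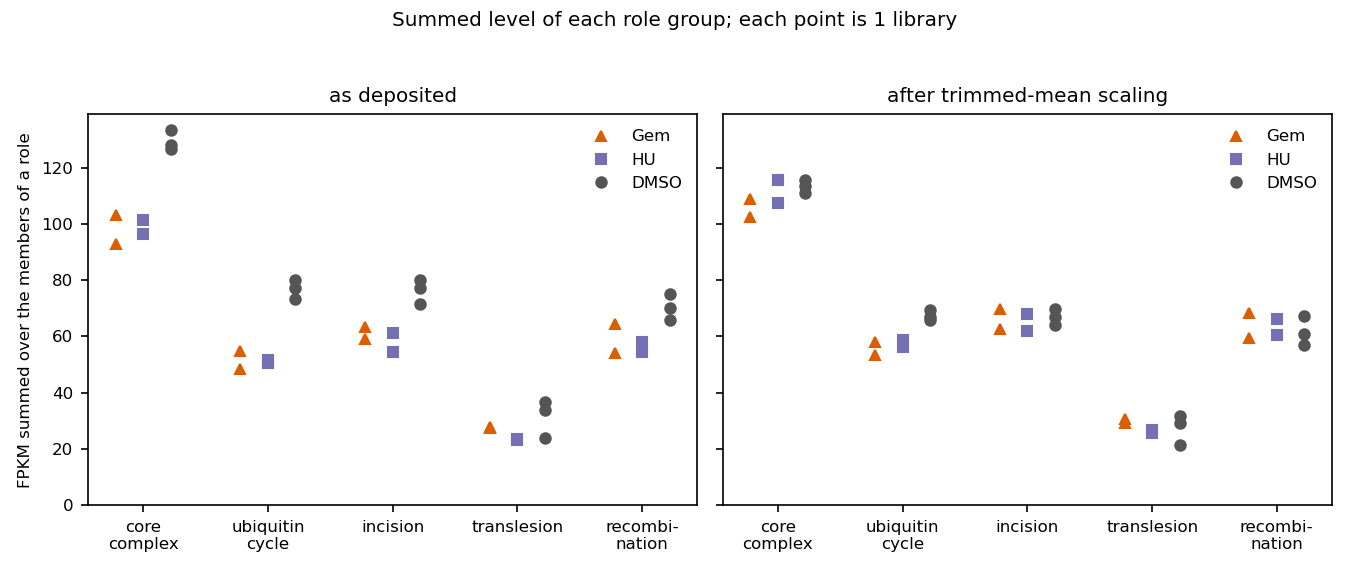
Sum of FPKM over the members of each role in each library, as deposited (left) and after trimmed-mean scaling (right). As deposited the drug libraries lie below DMSO in 4 of the 5 roles, all but translesion synthesis. After scaling the ubiquitin cycle alone keeps all 4 drug libraries below DMSO, and of its genes only Usp1 does so by itself.

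The ratio of 2 genes within a library does not depend on how libraries are scaled. For 7 ratios between partners, chosen after the values were seen, the mean of the 4 drug libraries was set against that of the 3 DMSO libraries by an exact two-sided permutation test, which with 35 ways to divide the libraries cannot give a p below 0.0286. Usp1 relative to Wdr48 was 0.967 and 0.9746 in Gem, 1.05 and 0.785 in HU, and 1.66, 1.04 and 1.06 in DMSO (exact p = 0.0571, Benjamini-Hochberg adjusted p = 0.400 over the 7 ratios). DMSO 1 was high and the other DMSO libraries lay beside HU 1. Usp1 relative to Ube2t was 1.011 and 1.35 in Gem, 1.16 and 1.04 in HU, and 1.59, 1.40 and 1.21 in DMSO (exact p = 0.114, adjusted 0.400). The other 5 ratios, Fancd2 to Fanci, Ercc1 to Ercc4, Mus81 to Eme1, Mad2l2 to Rev3l and Fancl to Ube2t, had exact p from 0.371 to 0.743, and 0 of the 7 passed.

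The drugs were also compared directly. In Gem against HU 0 of 32 members were called in limma as deposited or scaled, beside 0.0793% of all genes lower and 0.0216% higher as deposited (0.108% and 0.0216% scaled). At an unadjusted p below 0.05 stood 1 member, Faap100, with a log2 fold change of -0.34 (95% interval -0.60 to -0.084; limma adjusted p = 0.352). It was lower in both Gem libraries than in both HU libraries. For Usp1 the difference was 0.093 (95% interval -0.28 to 0.47). Brca1 had the lowest fold change of the members, -0.41 (-0.90 to 0.080), and Mad2l2 the highest, 0.34 (-0.065 to 0.75). A miss of the threshold with 2 libraries each does not show that the drugs act alike.

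The called members were mostly abundant ones. Across the 32 members Spearman's rho between the DMSO level and the change was -0.42 in Gem and -0.57 in HU, and across the 13416 tested genes with a known length -0.51 and -0.59. With exonic length, which ran from 1691 bases in Fancf to 13643 in Brca2, rho was 0.31 and 0.32 across the members and 0.074 and 0.084 across the tested genes. The points share the same 7 libraries and the level shares the DMSO values with the change, so these are descriptions.

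From a list of further crosslink repair and aldehyde-clearance genes, 36 were in the table and 35 were tested; 7 fell in Gem and 14 in HU as deposited, and 0 rose, near the 23.2% and 35.5% of all genes that fell. The list was drawn up with earlier results known, and its median log2 fold change was -0.27 in Gem and -0.32 in HU. After scaling 0 were called in Gem and 2 fell in HU, where 5.42% of all genes fell. Both were among the 4 with the smallest p: Adh5, which clears formaldehyde, a natural source of crosslinks, and Cenpx, whose protein binds DNA with FANCM. Adh5 was at 90.37 and 92.83 FPKM in Gem, 78.86 and 81.04 in HU, and 122.39, 125.92 and 127.12 in DMSO, with log2 fold changes of -0.45 ± 0.063 and -0.64 ± 0.063 (SE; limma adjusted p = 0.00699 and 0.00102) and scaled changes of -0.15 and -0.28 (limma adjusted p = 0.317 and 0.0389). Cenpx averaged 77.9 ± 6.87 FPKM in Gem, 68.8 ± 0.728 in HU (SD, n = 2 each) and 107 ± 1.32 in DMSO (n = 3), with scaled changes of -0.16 and -0.27 (limma adjusted p = 0.287 and 0.0441). Babam1, of the BRCA1-A complex, and Rad18, the ligase of translesion synthesis, fell in both drugs as deposited, by 0.40 and 0.43 and by 0.44 and 0.57 on the log2 scale. Bard1, the obligate partner of BRCA1, named here after its values were seen, was between 0.25 and 0.70 FPKM in all libraries and was not tested, although Brca1 was at 2.56 FPKM or more.

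Markers of the labelled cells and of others were summed as deposited only, where most genes tested lay lower in the drug libraries. Of 9 stem cell markers Fgd5 and Hoxb5 were below 1 FPKM in every library. The list summed to 72.8 to 84.0 FPKM in Gem, 73.1 to 77.3 in HU and 103 to 127 in DMSO. The 6 of them tested had a median log2 fold change of -0.46 in Gem and -0.34 in HU as deposited. After scaling these medians were -0.17 and -0.049. The 9 granulocyte and monocyte markers summed to 49042 to 51092 FPKM in Gem, 45854 to 49218 in HU and 40842 to 46118 in DMSO. This sum, far above that of the stem cell markers in every group, was higher in Gem than in DMSO without overlap, while HU and DMSO overlapped. It weighs abundant genes most. Of the 9, 7 had a change below 0 in each drug as deposited, with medians of -0.32 in Gem and -0.52 in HU. After scaling the medians were -0.022 and -0.16. As deposited 2 of the 9 fell in Gem and 3 in HU, and 0 rose. The 5 mast cell and basophil markers, all detected in every library, summed to 218 to 394 FPKM in Gem, 200 to 203 in HU and 267 to 1282 in DMSO, where DMSO 3 was lowest, and 0 fell in Gem and 2 in HU. The 7 erythroid markers summed to 24.0 to 32.3 FPKM in Gem, 32.2 to 33.9 in HU and 52.4 to 98.6 in DMSO; 3 fell in Gem and 1 in HU. The 5 megakaryocyte markers summed to 1680 to 1784 FPKM in Gem, 1334 to 1528 in HU and 1714 to 2778 in DMSO. Of 6 lymphoid markers 4, and of 5 stromal and endothelial markers 3, were below 1 FPKM in every library. Of 12 proliferation genes 7 fell in Gem and 9 in HU as deposited and 0 after scaling. They summed to 630 to 692 FPKM in Gem, 609 to 628 in HU and 847 to 985 in DMSO. Beside all these counts as deposited stand 23.2% of all genes tested that fell in Gem and 35.5% in HU. After scaling 1 erythroid marker fell in each drug and 1 stem cell marker fell in HU. On that scale 1 granulocyte and monocyte marker rose in HU, where 5.42% of all genes fell and 4.67% rose. The part of these in the members' changes was not tested. In such bulk libraries fewer cells of a type and less RNA per cell cannot be told apart.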

How the data were processed

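RNA of 7 libraries (Gem 2, HU 2, DMSO 3) was analysed from 1 table of FPKM per gene that the authors deposited, written to 2 decimals. Per the labels' protocols, total RNA came from a miRNeasy extraction, cDNA from Geo-seq amplification and libraries from a TruePrep kit. Per the submitters' processing notes, the tools were DESeq2, HTSeq, Cufflinks 2.1.1 and Bowtie 0.12.9 and the build was mm10, with no role or order. Which of them made the FPKM, and with which annotation, is not given in the sources used here. All 7 columns were matched to libraries by title, and 0 were left unused. The FPKM sum was 703016 to 729258 in Gem, 647760 to 651315 in HU and 818775 to 832979 in DMSO. Of the low values, 32.3% to 49.1% were whole multiples of a fitted read step (tolerance 0.1), so reads were not recovered; the depth is unknown and no interval that needs it is given.

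From these values log2(FPKM + 1) was modelled with limma 3.58.1 in R 4.3.3 (3 groups, mean-variance trend, 4 residual degrees of freedom, no block). Tests were two-sided, with Benjamini-Hochberg adjustment over 13865 genes. Trimmed-mean scaling left out 30% of ratios and 5% of levels at each end. Intervals are limma's at 95%. Gene positions and lengths came from GENCODE M21. Figures were drawn in Python 3.11.15, and the fit was tested on simulated data. The members, roles, lists and tests were chosen with earlier results of these data known. The rule for named genes was full values for each member called in any comparison on either scale, for the member with the smallest p of a role with none called, and for the 4 other pathway genes with the smallest p; further members were given in full after their values were seen. The tests of partner ratios and the scaled fit with a block were added after the data were seen.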

Additional observations from a re-analysis of the deposited data

How the results depend on the processing

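Scaling decided the counts of members called lower. In Gem 4 fell as deposited, and 0 after trimmed-mean scaling, after setting all libraries to the same FPKM sum, and after quantile normalization; in HU 10 fell as deposited and 0 under each of these 3. With no filter on low values 1 fell in Gem and 6 in HU, beside 1286 and 3882 of the 39614 genes tested. Without the mean-variance trend 2 fell in Gem, beside 1902 of 13865 genes. In the other direction, 6 fell in Gem and 12 in HU among the 21 members with a mean FPKM of at least 5. Of the 8512 genes that reached this mean, 3789 fell in Gem and 5000 in HU. With library weights 6 and 11 members fell, beside 3959 and 5034 of 13865 genes. Members called higher in HU numbered 0 as deposited and 1 after trimmed-mean scaling. Without DMSO 1, DMSO 2 and DMSO 3 in that order, 3, 2 and 4 members fell in Gem, beside 1428, 2044 and 3204 of all genes. In HU 4, 6 and 10 members fell, beside 3565, 3906 and 4672 of all genes. The scaled counts of members in these fits were 0 in Gem and 0 to 1 in HU. Without 1 library of a drug, that group is left with 1 library and is taken to vary like the others. Fewer members then passed in that drug, as did fewer genes of the whole table, so this loss was not particular to the members. In both drugs members called higher numbered 0 throughout the fits that left out a library. In Gem against HU 0 were called under every alternative run.

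The median member in Gem, -0.27 as deposited, was -0.0076 after trimmed-mean scaling, -0.096 at the same FPKM sum and -0.036 after quantile normalization. In HU, -0.28 as deposited, it was 0.036, 0.018 and 0.0050 under these, -0.44 with a mean FPKM of at least 5, and -0.33 with library weights. In Gem against HU, 0.062 as deposited, it was 0.0069, -0.071 and 0.0093. Leaving out libraries it ran from -0.35 to -0.24 in Gem, from -0.33 to -0.26 in HU and from -0.026 to 0.080 in Gem against HU as deposited. Scaled, without Gem 1, Gem 2, HU 1, HU 2, DMSO 1, DMSO 2 and DMSO 3 in that order, it was -0.055, -0.0034, -0.0027, -0.0034, 0.0062, -0.0061 and -0.046 in Gem, 0.041, 0.040, -0.0068, 0.052, 0.032, -0.0063 and 0.012 in HU and -0.056, -0.0042, 0.015, -0.056, 0.0065, 0.0062 and 0.0062 in Gem against HU. Rfwd3 in HU, -0.32 as deposited, was 0.029 after trimmed-mean scaling, 0.011 at the same sum and 0.0995 after quantile normalization. Scaled and in the same order of libraries left out it was 0.034, 0.033, -0.0061, 0.086, 0.033, 0.012 and 0.047.

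Replicate numbers 1 and 2 are shared by the groups, number 3 is in DMSO alone, and the labels do not say whether they pair the libraries. Deviations of same-numbered libraries correlated by -0.074 to 0.055. In a group of 2 libraries the deviations are equal and opposite, so these correlations cannot decide whether libraries share an origin. With the replicate block 4 members fell in Gem and 9 in HU, beside 2743 and 4376 of 13865 genes. Because number 3 is in DMSO alone, the block fits DMSO 3 by itself and takes it out of the changes. The member medians were -0.31 and -0.33, the same as without DMSO 3. Not all were the same members: in limma Wdr48 no longer passed in Gem (adjusted p = 0.0529), nor Fancl (0.0838) and Palb2 (0.0668) in HU. With the block Mus81 passed in Gem and Ercc1 in HU. The block together with scaling, added after the data were seen, gave 0 calls, medians of -0.047 in Gem, 0.011 in HU and 0.0069 in Gem against HU, and 0.046 for Rfwd3 in HU. The cause of the shift between the scales was not tested. With unknown depth, the members with the lowest values, such as Fan1, Fancf and Rad51c, are the least certain.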
